A study of Mus musculus with 8 samples.

Results

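The genes described here are Krt5, Krt13, Krt14, Krt17, Lor, Ivl, Sprr1a, Krtdap, Trp63 and Sbsn, 10 of the 31228 genes in the table, taken by symbol as squamous keratins, cornified envelope genes and their companions. They were chosen by their measured levels in these same libraries, organoid against epithelium and between the organoid groups, so the values below describe them and are no test of them. They were measured by sequencing of polyadenylated RNA from ducts and duct organoids of C57BL/6 mice. An organoid is a hollow culture of epithelial cells grown in a gel matrix. The study compared freshly dissected extrahepatic bile duct epithelium (1 library), freshly dissected pancreatic duct epithelium (1 library), bile duct organoids (3 libraries) and pancreatic duct organoids (3 libraries). Ducts of both kinds were minced and digested with collagenase IV. The epithelia went into Trizol without culture, and the organoids were taken after 3 to 4 passages in Matrigel with EGF, R-Spondin-1, Noggin, FGF10, nicotinamide, N-acetylcysteine and B27. Wnt3A conditioned medium and Y27632 were present at the start of culture and were withdrawn once luminal organoids had formed. No label says whether the replicates came from separate animals. Any p-value below therefore measures the spread between these cultures, which may be technical.

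Stratified squamous epithelia have a basal layer that divides and upper layers that flatten and harden. Trp63 encodes p63, the transcription factor that defines basal cells, and basal cells assemble filaments from the keratins of Krt5 and Krt14. As cells leave the basal layer they make loricrin (Lor), involucrin (Ivl) and small proline-rich proteins (Sprr1a), which transglutaminases cross-link beneath the membrane into the cornified envelope. Bile and pancreatic ducts are lined instead by a single layer of cells whose filaments contain the simple-epithelial keratins of Krt8, Krt18, Krt19 and Krt7.

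Values are FPKM (reads scaled to exon length and to library size), scaled between the 8 libraries so that the bulk of genes is level, and are called scaled FPKM. FPKM are per length, so levels may be compared between genes. The deposited values imply 12876466 to 20828195 reads per library, and read numbers quoted for a gene were recovered from its FPKM. Between 11771 and 14239 genes reached 1 FPKM in a library. The epithelial libraries held much RNA of other cells. Summed scaled FPKM of the 5 acinar markers was 16125 (bile) and 33129 (pancreatic) against 1.65 to 7.57 in the organoids, where 3 of the 5, Pnlip, Cpa1 and Amy2a5, had 0 reads. The 7 smooth muscle and myoepithelial markers summed to 2223 and 4005 against 0.346 to 0.637 in the organoids, and the 6 fibroblast markers to 1386 and 1605 against 0.145 to 2.48. The 5 leukocyte markers summed to 394 and 384 against 2.24 to 11.5. In contrast, the 8 simple epithelial markers summed to 2693 and 539 in the epithelia against 4196 to 10684 in the organoids. The duct epithelium list did not follow them in bile duct, where it summed to 2201 in the epithelium and 463 to 849 in the organoids; in pancreatic duct it gave 535 and 405 to 1663. Tff2, a trefoil peptide, made the difference in bile duct, with 1578 in the epithelium and 2.11 to 4.74 in the organoids. Without it the sums were 623 against 458 to 847 in bile duct and 247 against 395 to 1650 in pancreatic duct. In such bulk samples fewer cells of a type and less RNA per cell cannot be told apart, which holds for every difference from an epithelium given below. The part of these other cells in those differences was not tested.

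The label squamous describes what these genes do elsewhere, and the libraries did not show the genes moving as a set. Lor, Sprr1a, Krt14, Krt17, Sbsn and Ivl had at least 1 scaled FPKM in at least 1 organoid, whereas Krt13, Trp63 and Krtdap stayed below 1 in all 6. Krt5 was at the limit, with a highest value of 0.986 that was 1.05 FPKM as deposited. The summed level of the 10 genes was 63.5 scaled FPKM in the epithelium of the bile duct, 18.2 in that of the pancreatic duct and 32.2 to 93.0 over the organoids. For comparison, Krt8, a keratin of simple epithelia, alone had 1482 to 4403 scaled FPKM in the organoids. The plot of all 10 genes by library shows how differently they were distributed.

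**Figure D1:**
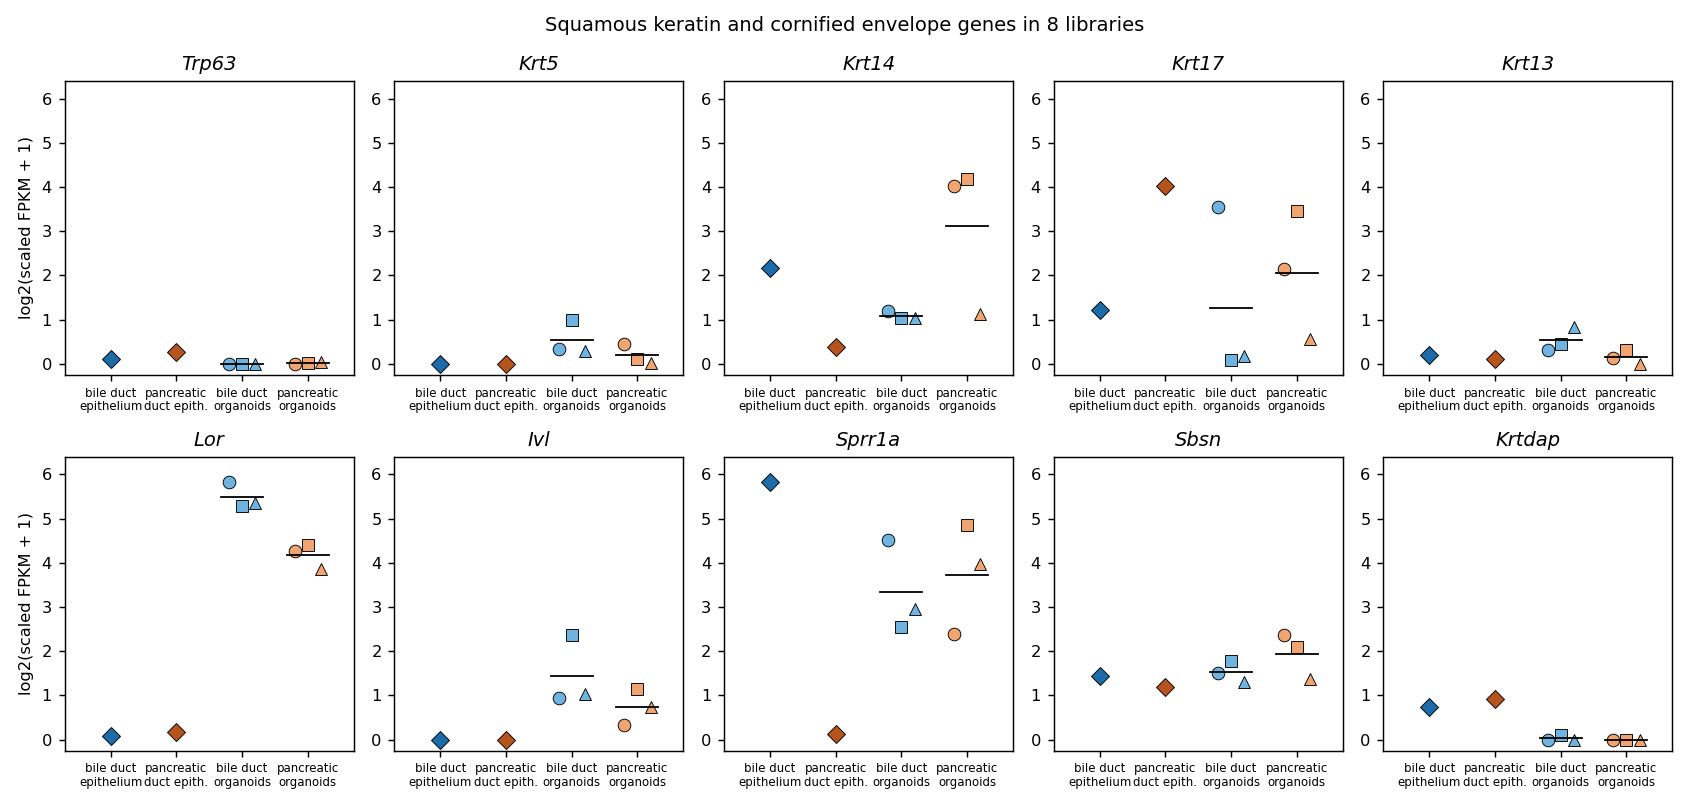
Level of each of the 10 genes in each of 8 libraries, as log2(scaled FPKM + 1). Diamonds are the single epithelial libraries, circles, squares and triangles are organoids 1, 2 and 3 of a group, and the black line is the mean of 3. Lor is high in 6 of 6 organoids and near 0 in both epithelia, while Trp63 and Krtdap lie near 0 in the organoids.

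Lor, Sprr1a and Ivl lie in the epidermal differentiation complex, a gene cluster known for its cornified envelope genes, here on chromosome 3 of build GRCm38. Sequences upstream of 4 members are shown because these carry the same pair of short motifs while their genes behaved differently: Lor and Ivl were higher in every organoid than in its epithelium, Sprr1a differed in direction between the organs, and Krtdap had 1 read over all 6 organoids. Each is the 160 bases before the RefSeq start site in build GRCm38.p6, on the gene's own strand. Capitals mark TGANTCA, the site of the AP-1 transcription factors. Nearer the start, capitals mark the TATA box. The windows are chr3:92083143-92083302 (minus strand) for Lor, chr3:92573736-92573895 (minus strand) for Ivl, chr3:92485882-92486041 (minus strand) for Sprr1a and chr7:30787745-30787904 (plus strand) for Krtdap.
Lor: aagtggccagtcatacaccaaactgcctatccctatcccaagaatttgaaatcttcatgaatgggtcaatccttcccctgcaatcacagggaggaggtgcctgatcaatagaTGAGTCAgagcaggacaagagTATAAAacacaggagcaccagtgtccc
Ivl: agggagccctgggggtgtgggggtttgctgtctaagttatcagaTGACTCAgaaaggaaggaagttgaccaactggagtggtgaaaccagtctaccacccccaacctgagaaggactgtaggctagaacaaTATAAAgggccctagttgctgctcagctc
Sprr1a: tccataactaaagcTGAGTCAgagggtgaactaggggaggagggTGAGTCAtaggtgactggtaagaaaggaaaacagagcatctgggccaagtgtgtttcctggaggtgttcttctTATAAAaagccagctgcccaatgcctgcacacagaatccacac
Krtdap: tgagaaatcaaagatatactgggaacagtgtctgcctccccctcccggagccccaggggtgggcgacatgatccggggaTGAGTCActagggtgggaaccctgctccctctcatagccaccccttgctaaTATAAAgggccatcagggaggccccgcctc

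Counting from the start site, the AP-1 letters begin at -48 in Lor, at -116 in Ivl, at -146 and -116 in Sprr1a and at -81 in Krtdap, and the TATA box begins at -27, -29, -43 and -30. The full windows searched run from 250 bases before the start to 50 after it, and were found for 8 of the 10 members; Krt17 and Trp63 had none in the table used. TGANTCA, which reads the same on both strands, occurred in 6 of these 8 (Lor, Ivl, Sprr1a, Krtdap, Sbsn and Krt13) and in 7.81% of all 32851 windows. Members are counted as genes with a match in any window, and a gene such as Krt13 can have several, so these shares differ in unit. TATAAA, searched on both strands as TATAAA and TTTATA, occurred in 4 of the 8 and in 13.6% of all windows. The RefSeq start used for Krt14 lies 1518 bases from the end of the deposited gene, so its window may not be that of the transcripts counted. These matches describe letters, and no binding was measured.

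Among basal-layer genes, Trp63 (chr16:25683763-25892102) was close to undetected in the organoids. Its reads numbered 8 for the bile duct's epithelium and 22 for the pancreatic duct's. The bile duct organoids gave 0, 0 and 0 reads, and the pancreatic duct organoids 0, 1 and 6 (values of organoids are given in the order 1, 2, 3 here and below). Every organoid was thus below its epithelium. Pooled over 3 cultures and with a count of 0 set to a limit of 3 reads, Trp63 was 14.0-fold lower in bile duct organoids. That value takes the epithelial reads as exact, and the lower 95% exact limit of the ratio was 8.99. Without organoid 2 these became 8.98 and 5.75, and without organoid 3 they became 9.32 and 5.96, since fewer reads are left. In pancreatic duct organoids Trp63 was 13.5-fold lower (95% exact interval of the read ratio 5.58 to 37.5, counting error only). That size rested on pancreatic duct organoid 3, which gave 6 of the 7 reads: without it the ratio was 56.8 (9.18 to 2343). The level was low everywhere, at most 0.199 scaled FPKM. Both epithelia also carried smooth muscle and acinar RNA, and the part of such cells in the Trp63 reads was not tested.

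Krt5 (chr15:101707070-101712891), the type II keratin of basal cells, went the other way at a similarly low level. It had 0 reads in both epithelia, 10, 46 and 10 reads in the bile duct organoids, and 13, 3 and 1 in those of the pancreatic duct. These are rounded, since the exon length behind its FPKM differed slightly from the annotation. The highest level was 0.986 scaled FPKM, in bile duct organoid 2. Pooled and with the 3-read limit, Krt5 was 4.18-fold higher in bile duct organoids than in bile duct epithelium (lower 95% exact limit 3.30). Without bile duct organoid 2, which gave 46 of the 66 reads, Krt5 was 1.98-fold higher (lower exact limit 1.47). In pancreatic duct, 17 reads against 0 gave a bound of 1.32-fold on the same 3-read limit, and the lower 95% exact limit of the ratio was 0.959. The bound was 0.430 without pancreatic duct organoid 1, which gave 13 of the 17 reads, and 2.07 without organoid 3 (lower exact limits 0.213 and 1.49), so the reads did not settle whether Krt5 was higher there. Some 12.2% of the 50-base stretches of Krt5 transcripts occur in another gene, most often Krt6a, so part of these reads could belong to a relative.

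Krt14 (chr11:100203162-100207548), the type I partner of Krt5, was very uneven between libraries, and its excess over Krt5 was large in pancreatic duct organoids 1 and 2 but small in bile duct organoid 2, with 1.04 scaled FPKM against 0.986. In epithelium it stood at 3.50 scaled FPKM (bile duct) and 0.301 (pancreatic duct). The 3 bile duct organoids were at 1.27, 1.04 and 1.06. The 3 pancreatic duct organoids were at 15.2, 17.0 and 1.20. Pancreatic duct organoids 1 and 2 were thus more than 10-fold above the other 4 organoids, and pancreatic duct organoid 3 lay within the range of the bile duct organoids. The partners were not balanced: pancreatic duct organoid 2, the highest for Krt14 with 544 reads, had 3 reads of Krt5.

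The same 2 organoids stood apart in genes that are not squamous markers. Hsp90aa1, a heat shock protein, had 266 and 232 scaled FPKM in pancreatic duct organoids 1 and 2 against 2.67 to 4.53 in the other 4 and 202 and 122 in the epithelia. The mitochondrial ribosomal RNA mt-Rnr2 had 409 and 369 against 2.41 to 4.19, with 1728 and 1092 in the epithelia. Rpl12, a ribosomal protein gene, had 168 and 179 against 10.3 to 15.7, with 108 and 88.8 in the epithelia. Hspa8, another heat shock gene, did not follow this split, with 296 to 431 in the organoids. The part of these library differences in the Krt14 values was not tested. In the epithelia, where mt-Rnr2, Hsp90aa1 and Rpl12 were also above every bile duct organoid, Krt14 was at 3.50 (bile duct) and 0.301 (pancreatic duct). The comparison of bile duct organoids with their epithelium thus runs across the same library differences. Krt14 shares 13.9% of its 50-base stretches with other genes, mostly Krt16, whose own level in pancreatic duct organoids 1, 2 and 3 was 3.45, 4.29 and 0.168.

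**Figure D2:**
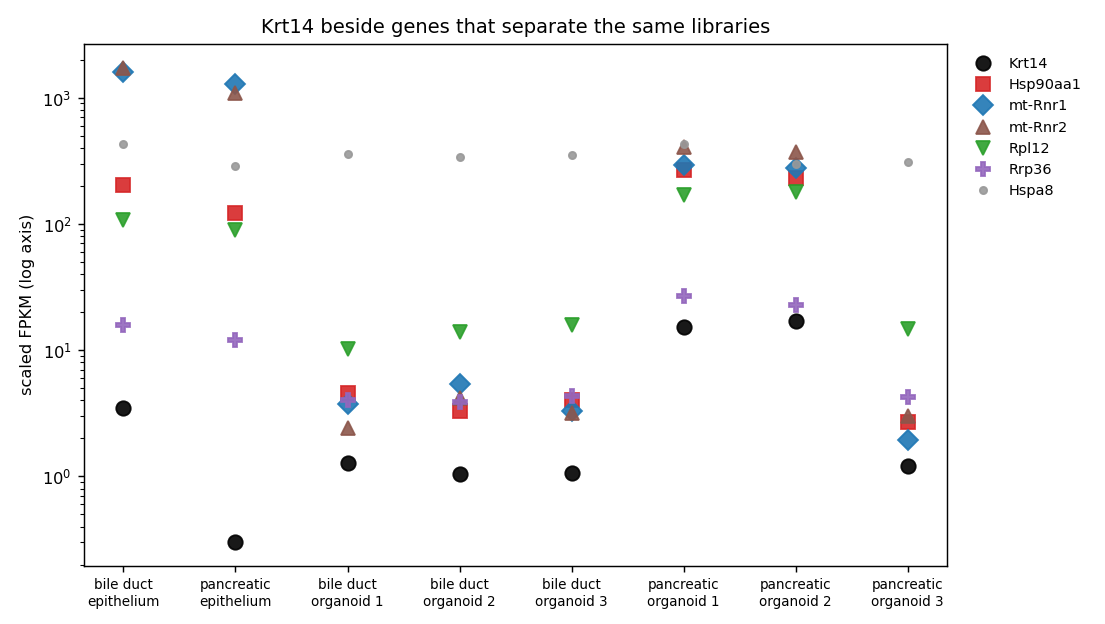
Krt14 and 6 other genes in 8 libraries, as scaled FPKM on a log axis, 1 symbol per gene. Pancreatic duct organoids 1 and 2 lie above the other 4 organoids for Krt14 (15.2 and 17.0 against 1.04 to 1.27), Hsp90aa1, mt-Rnr1, mt-Rnr2, Rpl12 and Rrp36, but not for Hspa8.

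Krt17 (chr11:100256217-100261029), a keratin known from hair follicles and injured skin, varied widely between cultures of 1 group. In epithelium it was at 1.32 scaled FPKM (bile duct) and 15.2 (pancreatic duct). The 3 bile duct organoids were at 10.8, 0.0606 and 0.130, that is 299, 2 and 4 reads. The 3 pancreatic duct organoids were at 3.44, 10.1 and 0.481. High values thus occurred in 1 bile duct and 2 pancreatic duct organoids, and the groups overlapped. Krt17 shares 3.99% of its 50-base stretches with other genes, chiefly Krt14, and the part of shared reads in its values was not tested. The same 3 organoids were also the highest for Lama3, a chain of the basement membrane laminin of squamous cells, which was chosen after its values were seen. Its scaled FPKM were 28.9, 3.02 and 5.89 for bile duct and 23.4, 36.0 and 3.97 for pancreatic duct, with 8.13 and 7.67 in the epithelia. This ranking was not particular to squamous genes. The simple-epithelial keratin Krt8 was highest in the same 3 organoids, with 3741, 2370 and 2511 for bile duct and 4403, 3100 and 1482 for pancreatic duct.

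Krt13 (chr11:100117327-100121566), a keratin of the upper layers of non-cornified squamous lining such as oesophagus, was below 1 scaled FPKM in every library. The epithelia gave 3 reads (bile duct) and 2 reads (pancreatic duct). Reads numbered 8, 14 and 28 in the bile duct organoids and 3, 8 and 0 in those of the pancreatic duct. On scaled FPKM the bile duct organoids (0.246 to 0.774) lay just above the pancreatic duct organoids (0 to 0.242), a gap worth less than 1 read. Against its epithelium, the pooled read ratio was 3.16 in bile duct organoids (95% exact interval 1.02 to 15.9) and 1.28 in pancreatic duct organoids (0.279 to 11.9). Without bile duct organoid 3 the first rested on 22 reads against 3, with an interval of 0.631 to 11.0, and without pancreatic duct organoid 2 the second turned to 1.95-fold lower (0.163 to 17.1), so neither difference was firm at this depth.

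Of the 10 genes Lor (chr3:92080271-92083142), which encodes the major protein of the envelope in skin, had the highest mean over the organoids, although Sprr1a exceeded it in pancreatic duct organoids 2 and 3 and in bile duct epithelium. The epithelia gave 1 read (bile duct) and 3 reads (pancreatic duct). Reads numbered 1769, 1443 and 1400 in the bile duct organoids, or 55.7, 38.1 and 39.6 scaled FPKM. The pancreatic duct organoids gave 515, 648 and 550 reads, or 18.2, 20.1 and 13.6 scaled FPKM. Every organoid was far above every epithelium, and the lowest bile duct organoid was above the highest pancreatic duct organoid. The pooled read ratio to the epithelium was 876 in bile duct organoids (95% exact interval 157 to 34593) and 133 in pancreatic duct organoids (45.3 to 644), the width coming from the 1 and 3 reads in the epithelia. No 50-base stretch of Lor transcripts, 0 of 1730, occurs in another gene.

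Ivl (chr3:92570902-92573735), which encodes an early scaffold of the envelope, was also read in every organoid and in neither epithelium. Both epithelia had 0 reads. Reads numbered 32, 169 and 40 in the bile duct organoids (0.933, 4.13 and 1.05 scaled FPKM) and, in those of the pancreatic duct, 8, 42 and 29 (0.261, 1.20 and 0.663). Bile duct organoid 2 was the highest and the groups overlapped. Pooled, Ivl was at least 15.3-fold higher in bile duct organoids and at least 6.12-fold higher in pancreatic duct organoids than in the matching epithelium, against a limit of 3 reads in that epithelium. Without bile duct organoid 2, which gave 169 of 241 reads, the first bound was 7.13-fold.

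Sprr1a (chr3:92483952-92485895), a cross-linked bridge protein of the envelope that is also known as an injury-response gene, differed most between the epithelia. The bile duct's epithelium gave 506 reads (56.0 scaled FPKM), the pancreatic duct's 1 read (0.0939 scaled FPKM). The bile duct organoids were at 22.0, 4.84 and 6.81 scaled FPKM, below their epithelium in 3 of 3. The pancreatic duct organoids were at 4.20, 27.9 and 14.6, above theirs in 3 of 3. The organoid groups overlapped, with means of 11.2 ± 9.37 (SD, n = 3) and 15.6 ± 11.9 (SD, n = 3). The epithelial libraries were thus further apart than the organoid means. The pooled ratio of pancreatic duct organoids to their epithelium was 170 (95% exact interval 30.3 to 6707), and 110 (19.6 to 4353) without pancreatic duct organoid 2.

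Sbsn (chr7:30751471-30756134) and Krtdap (chr7:30787896-30791097) are neighbours that are expressed together in the upper layers of skin, where they encode secreted proteins. Sbsn was present everywhere at a low and fairly even level, 1.72 and 1.30 scaled FPKM in the epithelia, 1.82, 2.42 and 1.46 in the bile duct organoids and 4.17, 3.28 and 1.58 in those of the pancreatic duct. Krtdap had 5 and 8 reads in bile and pancreatic duct epithelium and 1 read in all, from bile duct organoid 2, over the 6 organoids. Pooled, Krtdap was 26.3-fold lower in bile duct organoids (95% exact interval 2.95 to 1246). On the 3-read limit it was 11.5-fold lower in pancreatic duct organoids (lower 95% exact limit 7.35). Without bile duct organoid 2 the first was 5.61-fold on that limit (lower exact limit 3.08), and without bile duct organoid 3 it was 17.5-fold. The second was 6.88-fold without pancreatic duct organoid 3 (lower exact limit 4.41). Krtdap was thus near 0 in organoids in which Sbsn was at 1.46 scaled FPKM or above. Sbsn overlaps Tmem147os, an antisense gene, over 6.96% of its 50-base stretches, and whether reads were counted by strand is not given in the sources used here.

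Read against their epithelia, organoids were counted as 2-fold apart where the mean of log2(scaled FPKM + 1) differed by at least 1 and all 3 cultures lay on the same side. With 1 epithelial library an exact or model test has no replicate on that side, so no p-value was computed. In bile duct, 6 of the 10 genes passed the filter of 1 scaled FPKM in the epithelium or the organoid mean, and 4 were 2-fold apart. Over all genes this was true of 38.9% of 15424, with 12.6% higher in organoids and 26.3% lower. Lor (log2 difference 5.42 ± 0.30, SD over 3 organoids) and Ivl (1.45 ± 0.79) were higher, and Sprr1a (-2.49 ± 1.04) and Krt14 (-1.09 ± 0.09) lower. Without bile duct organoid 2 Ivl was at 0.99 and no longer 2-fold apart, and on deposited FPKM without further scaling Krt14 was at -0.90 and no longer 2-fold apart. Sprr1a was at -3.08 without bile duct organoid 1. Krt17, at 0.06 ± 1.98, became 2-fold lower (-1.09) once bile duct organoid 1 was left out.

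In pancreatic duct, 5 of the 10 passed the filter and 4 were 2-fold apart, beside 40.4% of 15201 genes, with 15% higher and 25.5% lower. Lor (4.00 ± 0.28), Sprr1a (3.60 ± 1.25) and Krt14 (2.73 ± 1.71) were higher and Krt17 (-1.96 ± 1.45) lower. Krt17 was at -2.66 without pancreatic duct organoid 2 and at -1.21 without organoid 3. Sprr1a was at 4.28 without organoid 1, and Krt14 at 3.70 without organoid 3. Krt14 rested on pancreatic duct organoids 1 and 2: without them the difference was 0.75. Sbsn, at 0.75 ± 0.52, was 2-fold higher when pancreatic duct organoid 3 was left out (1.03) and with a pseudocount of 0.1 in place of 1 (1.05). The genes entered these comparisons because of such values, so their share beside the background carries no weight. Deposited FPKM without further scaling moved the median of all genes by 0.25 in bile duct and 0.28 in pancreatic duct, and the share of lower among all genes 2-fold apart from 67.6% to 56.6% and from 62.97% to 51.4%.

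**Figure D3:**
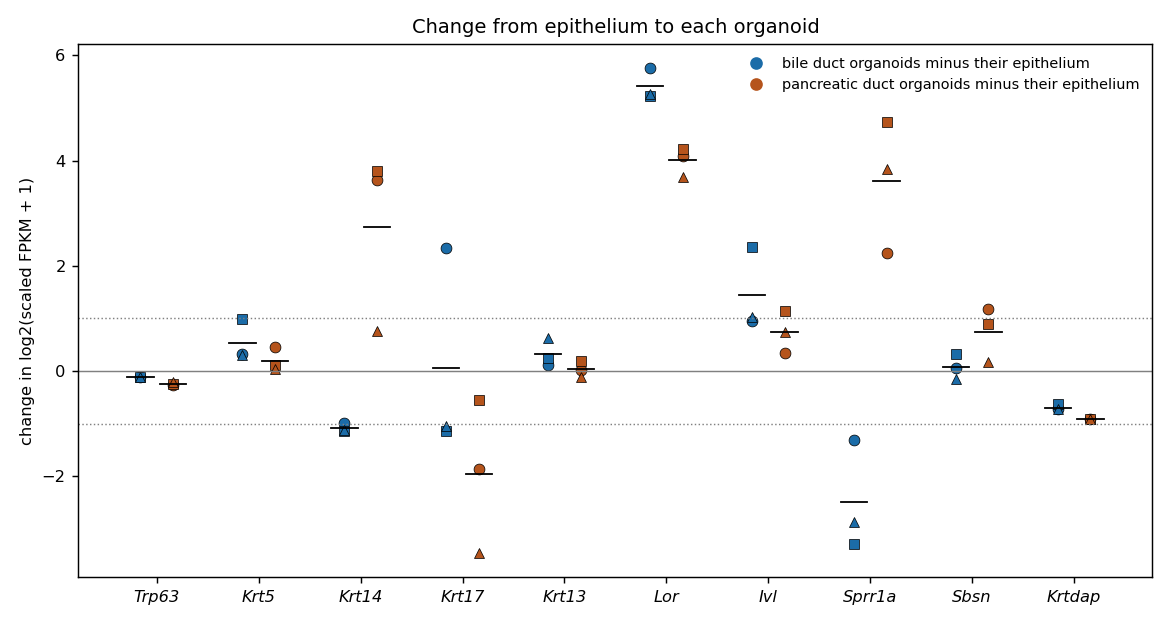
Change from the single epithelial library to each organoid, as the difference in log2(scaled FPKM + 1), for bile duct (blue) and pancreatic duct (brown). Circles, squares and triangles are organoids 1, 2 and 3, black lines are means, and dotted lines mark a 2-fold change. Sprr1a and Krt14 lie on opposite sides of 0 in the 2 organs, and Krt17 in bile duct spans both sides.

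Between the epithelia themselves, 4 of the 10 passed the filter and 3 were 2-fold apart, beside 13.7% of 15533 genes. Sprr1a (log2 difference, bile minus pancreatic, 5.70) and Krt14 (1.79) were higher in bile duct, as were 9.05% of all genes, and Krt17 (-2.80) was higher in pancreatic duct, as were 4.67%. Each side is 1 library, so the difference has no replicate check.

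Between the organoid groups, limma tested the 12094 genes that reached 1 FPKM in 3 or more organoids, and after Benjamini-Hochberg adjustment called 0 of them (0%), among them 0 of the 6 members tested. At an unadjusted p under 0.05 limma listed 309 genes, 2.55%, and 2 of the 6 members, Lor and Krt14. Lor was higher in bile duct organoids by 1.31 (log2, SE 0.21), and Krt14 lower by a difference of -2.05 (SE 0.81). The other tested members, Ivl at 0.72 (SE 0.44), Sbsn at -0.43 (SE 0.29), Krt17 at -0.81 (SE 1.16) and Sprr1a at -0.39 (SE 0.77), differed by less than 2 standard errors. With 1 library left out, Krt17 ran from -1.98 (without bile duct organoid 1) to -0.09 (without pancreatic duct organoid 2). Sprr1a ran from -1.08 (without pancreatic duct organoid 1) to 0.17 (without pancreatic duct organoid 2). Groups did not overlap for Lor, 1 of the 6 members tested, nor for Krt13, which failed the filter, with bile duct higher in both. Among all genes tested 6.68% did not overlap, 3.47% with bile duct and 3.21% with pancreatic duct higher. With pancreatic duct organoid 3 left out limma called 11 genes, of which Krt14 was 1 (-3.05, adjusted p = 0.00557), beside Hsp90aa1, mt-Rnr1, mt-Rnr2, Rpl12, Rrp1 and Rrp36. With pancreatic duct organoids 1 and 2 left out instead, the Krt14 difference was -0.06.

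For the 3 members most abundant in organoids, the genes with the most similar pattern over the 6 organoids were sought by Pearson correlation of log2(scaled FPKM + 1) among 10265 protein-coding genes. These correlations describe 6 libraries that fall into 2 groups and carry no test. For Lor they were Irf5 (r = 0.992), Cdkn2aipnl (0.983), Zdhhc2 (0.972), C2cd2 (0.968) and Hspa5 (0.968), none of them a cornified envelope gene. Irf5 was nonetheless higher in the epithelia, 8.66 and 10.1 scaled FPKM, than in the organoids, 0.892 to 1.68, so its likeness to Lor did not extend to the tissue. For Sprr1a they included Selenow (0.991), Stc1 (0.980), Tmem35b (0.978) and Bcl2l11 (0.976), and for Krt14 they were Hsp90aa1 (0.996), Rrp15 (0.995), Cep170b (0.995), Rrp36 (0.995) and Wwp2 (0.992). Rrp15 and Rrp36 serve ribosomal RNA processing, and both were highest in pancreatic duct organoids 1 and 2, with 12.3 and 10.2 scaled FPKM for Rrp15 against 0.544 to 0.854 in the other 4.

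The genomic neighbours of the members differed widely in level. Between Lor and Ivl, chr3:92080271-92573735, lie 18 protein-coding genes counting both ends, of which 5 had at least 1 scaled FPKM in an epithelium, 8 in at least 1 organoid and 5 in every organoid. Over all 18563 protein-coding genes these shares were 71.5%, 60.6% and 52.5%. The last 5 were Lor, Sprr1a, Sprr2a1, Sprr2a3 and Gm9774. Sprr2a3, a small proline-rich gene, was the most abundant of the 18 in each organoid. Its scaled FPKM were 25.7 and 0.289 in the epithelia, 87.4, 338 and 282 in the bile duct organoids and 204, 164 and 92.8 in those of the pancreatic duct. Its level and that of Sprr2a1 are uncertain, since 61.1% and 96.3% of their 50-base stretches also occur in another gene. Sprr1b, the closest relative of Sprr1a by name, had at most 0.0607 scaled FPKM, and Sprr2f had 0 reads in all organoids. In the type I keratin interval from Krt13 to Krt17, chr11:100117327-100261029, the simple-epithelial Krt19 had 639 to 2028 scaled FPKM in the organoids, whereas Krt15, a further basal keratin, had at most 0.284.

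**Figure D4:**
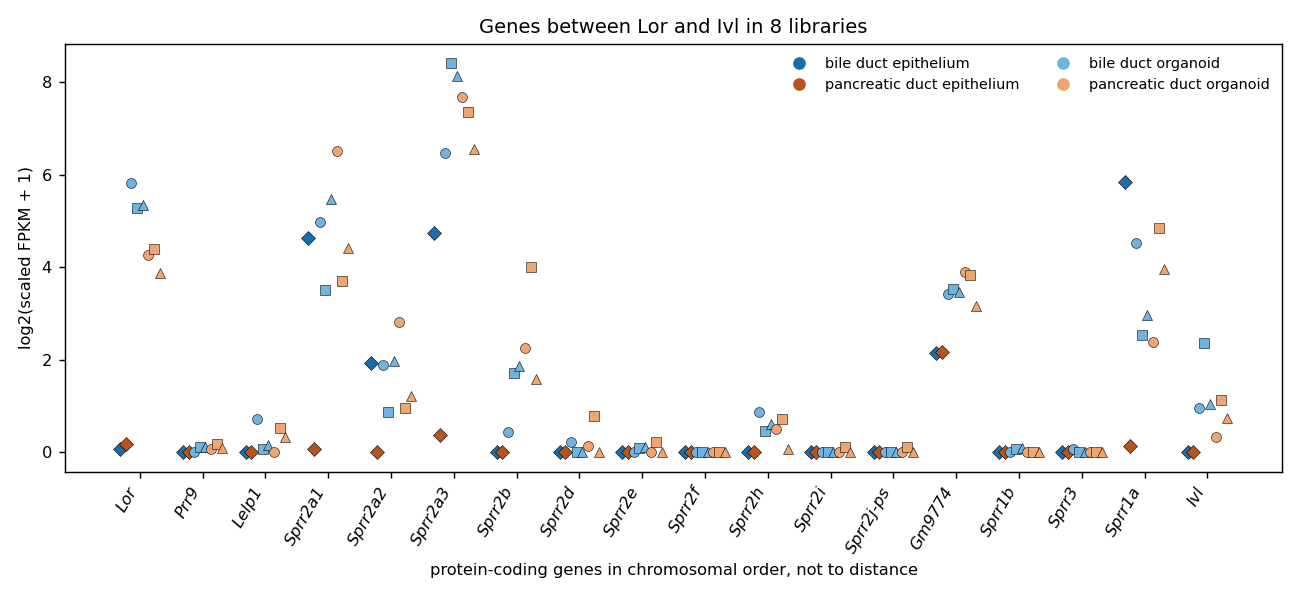
The 18 protein-coding genes from Lor to Ivl in chromosomal order, evenly spaced, with log2(scaled FPKM + 1) in 8 libraries. Diamonds are epithelia, and circles, squares and triangles are organoids 1, 2 and 3 of the group given by colour. Lor, Sprr1a, Sprr2a1, Sprr2a3 and Gm9774 are above 1 scaled FPKM in 6 of 6 organoids, while most others lie near 0.

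Other squamous genes were read from lists without the 10 members. Their counts stand beside shares over all genes of 12.6% higher and 26.3% lower in bile duct and 15% and 25.5% in pancreatic duct. Of 11 basal-layer genes, 6 reached 1 scaled FPKM in an organoid. In bile duct 5 could be counted, of which 2 were 2-fold higher and 2 lower in organoids (median log2 difference 0.64, against -0.09 over all genes counted), and in pancreatic duct 7, of which 5 were higher and 2 lower (median 1.39, against -0.09, and 0.90 without pancreatic duct organoids 1 and 2). Of the higher genes, 1 of 2 in bile duct and 5 of 5 in pancreatic duct passed the filter through the organoids alone and so had to be higher, and these counts and medians describe the list without supporting a direction. Pkp1, a desmosomal plaque protein, was the highest with 11.9 to 43.4 scaled FPKM in organoids against 1.30 and 0.121 in the epithelia. Krt6a, a keratin of stressed epidermis, had 1.54 to 24.9 against 0.356 and 0.101, and 57.2% of its stretches are shared, mainly with Krt6b. Dst, a linker of filaments to the basement membrane, was lower, 0.714 to 1.30 against 10.2 and 16.2.

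Of 36 suprabasal and cornified-layer genes, 18 reached 1 scaled FPKM in an organoid and 3, Flg, Hrnr and Sprr2f, had 0 reads in all organoids. In bile duct 7 of 18 counted were 2-fold higher and 3 lower (median 0.05, against -0.09), and in pancreatic duct 9 of 17 were higher and 2 lower (median 1.16, against -0.09). Without bile duct organoid 2 the bile duct median was 0.57. Here too 4 of the 7 higher genes in bile duct and 7 of the 9 in pancreatic duct passed the filter through the organoids alone, so the counts and medians carry no support. Ppl, a plakin that anchors the envelope, had 47.4 to 77.2 scaled FPKM in organoids against 13.3 and 12.3 in the epithelia. Klf4, a transcription factor of epidermal barrier formation, was lower, 13.5 to 35.1 against 100.03 and 114, as was Ecm1, 14.7 to 87.5 against 117 and 95.0. The 5 keratins of the list, named here after their values were seen, did not move together. Krt1, the type II keratin of upper epidermis, had 2 reads over the 6 organoids, while its partner Krt10 had 1.56 to 2.48 scaled FPKM in organoids against 1.14 and 1.40 in the epithelia, without being 2-fold apart. Krt80 had 3.96 to 10.9 against 6.44 and 5.55, also not 2-fold apart, and Krt4 and Krt78 were below 1 in every library.

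Of 13 hemidesmosome and p63-linked genes, 12 reached 1 scaled FPKM in an organoid although Trp63 itself did not. In bile duct 6 of 12 counted were 2-fold higher and 0 lower (median 1.17, against -0.09), and in pancreatic duct 7 of 13 were higher and 1 lower (median 1.08, against -0.09). The pancreatic duct median was 1.79 without organoid 3 and 0.59 without organoids 1 and 2. Itga3, a laminin-binding integrin, had 93.2 to 222 scaled FPKM in organoids against 20.8 and 27.1 in the epithelia. Perp, a desmosomal protein and known p63 target, had 109 to 157 against 49.9 and 24.5. Itgb4, the hemidesmosomal integrin chain, had 48.0 to 95.9 against 32.8 and 33.0. Sfn, which encodes stratifin, was not 2-fold apart in bile duct and was higher in pancreatic duct organoids. It had 33.7 to 102 in bile duct organoids against 87.4 in their epithelium (log2 difference -0.81) and 21.7 to 74.1 in pancreatic duct organoids against 14.0 (1.71). Between the organoid groups limma called 0 genes of these 3 lists after Benjamini-Hochberg adjustment, as it did over all genes.

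Markers that squamous genes can share with other linings were measured beside these. Msln, a mesothelial gene, had 316 to 790 scaled FPKM in organoids against 16.8 and 31.5 in the epithelia, while the other mesothelial markers Upk1b, Upk3b, Lrrn4 and Wt1 were at most 1.02, 0.386, 0.189 and 0.135 in organoids. Acta2, the actin of smooth muscle and of Krt14-positive myoepithelium, was at most 0.419 in organoids, against 1373 and 2841 in the epithelia. In the same organoids Krt14 was at 1.04 to 17.0 scaled FPKM, Trp63 at 6 reads or fewer and Krt5 at 0.986 scaled FPKM or less. The source of the Krt14 reads was not tested.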

How the data were processed

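The deposited table holds FPKM for 31228 genes in 8 libraries; the unit was read from the values, and 0 per-sample columns were left aside. Per the submitters' processing notes Bowtie2 2.2.3, HISAT2 2.1.0, HTSeq 0.6.0 and TopHat2 were used, with no role given. FPKM times merged exon length (GENCODE M21) gave whole reads in all libraries for 28253 genes (90.5%, tolerance 0.05 of a read), and read numbers quoted are these, rounded. Intervals (95%, exact Clopper-Pearson) and limits (3 reads) cover counting error only, and a 3-read limit takes the reads of the other side as exact. FPKM were scaled by a trimmed mean of log ratios (30% and 5% trimmed per side; genes with at least 1 FPKM in a library), over 8 libraries or, for the organoid test, over 6. Log2(scaled FPKM + 1) was tested with limma 3.58.1 (trend) in R 4.3.3, with Benjamini-Hochberg adjustment over all genes called under 0.05. Low genes appear less changed on this scale than they are.

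Groups came from the labels' source and title. The members and lists were chosen with earlier results of these data known. Named genes are the 10 members, up to 4 genes with the highest mean level of each list discussed, the 5 most alike genes for 3 members, chromosomal neighbours, relatives that share sequence, and genes called when a library was left out; Lama3, Lrrn4, Amy2a5, Flg, Hrnr, Krt1, Krt4, Krt10, Krt78 and Krt80, and Hspa8 as a contrast, were picked after their values were seen. Not every gene that met the rule is reported here. Promoter windows are RefSeq's. Shared 50-base stretches were counted over GENCODE M21 transcripts. Alternatives covered scaling, pseudocount (0.1), filter (none, or 10 FPKM), a voom test on recovered reads, a replicate block and left-out libraries. Python 3.11.15 with pandas 2.3.3, numpy 2.4.6, scipy 1.17.1 and matplotlib 3.10.9 was used.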

Additional observations from a re-analysis of the deposited data

Results flagged for a closer look

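Sprr1a and Krt14 moved in opposite directions from epithelium to organoid in the 2 organs, with 3 of 3 organoids on one side of the bile duct epithelium and 3 of 3 on the other side of the pancreatic duct epithelium. For Sprr1a the change in bile duct minus that in pancreatic duct was -6.09 on the log2 scale, and for Krt14 it was -3.81. Each rests on 1 epithelial library per organ, and the contrast of bile with pancreatic duct was not tested. For Krt14 the size in pancreatic duct came from organoids 1 and 2.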

How the results depend on the processing

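Between the organoid groups limma called 0 genes with deposited FPKM, a pseudocount of 0.1, no filter or a filter of 10 FPKM, 1 gene (Gm44536) with voom on recovered reads, and 0 to 11 with 1 organoid left out, the 11 without pancreatic duct organoid 3. Leaving out pancreatic duct organoids 1 and 2 together, chosen after seeing the data, gave 0, but this leaves 1 library in that group, assumed to vary like the bile duct organoids, and says nothing about stability. Deviations of same-numbered organoids from their group means correlated with r = -0.10, -0.44 and 0.48. With 3 cultures per group these values cannot decide whether the numbers pair the cultures, and no label says so. Limma with a replicate block called 0 genes, with 289 at an unadjusted p under 0.05 against 309 without it. Against the epithelia, a filter of 10 FPKM, under which fewer genes are counted, gave 2893 genes 2-fold apart in bile duct in place of 6005, and 3106 in pancreatic duct in place of 6144. The members 2-fold apart in bile duct were then 2 in place of 4. With 1 organoid left out, 3 to 5 members were 2-fold apart in bile duct and 4 to 5 in pancreatic duct. A pseudocount of 0.1 gave 5 members in pancreatic duct, Sbsn being added. With a pseudocount of 0.1 Krt17 in bile duct changed sign, to -0.95, without being 2-fold apart, and Sprr1a between organoid groups did so at 0.17 without pancreatic duct organoid 2. Without bile duct organoid 2 the sign also changed for Sprr1a between organoid groups (0.002) and for Sbsn in bile duct (-0.05). Krt13 in pancreatic duct was at -0.04 without pancreatic duct organoid 2. Depth limits Trp63, Krtdap, Krt5 and Krt13, whose values rest on few reads.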
